A study of Mus musculus with 9 samples.

Results

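The genes described here encode the vacuolar H+-ATPase (V-ATPase) and proteins of the lysosome. They were taken from the gene table of RAW264.7 cells by a fixed rule, which kept each protein-coding gene of GENCODE M21 whose symbol starts with Atp6v or Atp6ap and added 24 named lysosomal genes, without the cathepsins. The rule found 47 of the 28137 gene identifiers in the table, 23 by symbol and 24 by name. RAW264.7 is an established mouse macrophage line, which the labels call monocyte and macrophage leukemia cells. RNA-seq libraries were made from 3 groups of 3 libraries each, and the groups differed in the siRNA: a control siRNA (NC siRNA), siRNA against SFRP2, a secreted modulator of Wnt signaling, and siRNA against RAB6A, a small GTPase of Golgi trafficking. Per the labels, all 9 libraries came from cells given 60 nM siRNA for 6 h, then complete medium for 12 h, then lipopolysaccharide (LPS) at 100 ng/ml for 24 h, so there was no library without LPS and none without transfection. The study's own methods give another siRNA dose and another polarizing mixture for this cell line. The labels do not say whether the libraries of a group came from separate cultures, or whether the SFRP2 siRNA libraries 1 to 3 received the same siRNA. The study's supplement lists 3 SFRP2 siRNA sequences, numbered 1 to 3. These libraries were treated as replicates here. The study does not describe the RAB6A siRNA group. The study's methods speak of independent experiments in general, without naming these libraries, so p-values measure the spread between the libraries, which may be technical.

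The V-ATPase is a rotary proton pump. A cytosolic V1 sector hydrolyzes ATP and drives the membrane V0 sector, which moves protons into lysosomes, endosomes and the Golgi. In macrophages this acid is needed by the hydrolases that digest engulfed material, and several V-ATPase subunits exist as isoforms that place the pump on different membranes. Transcription factors of the MiT/TFE family (TFEB, TFE3 and MITF) bind E-boxes in the promoters of many lysosomal genes, and TFEB and TFE3 enter the nucleus when lysosomes are stressed or nutrients are short.

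The E-box is the sequence CACGTG, which reads the same on both strands, and the form preferred by MiT/TFE factors extends it to TCACGTG on either strand, so that every extended match is also an E-box match. RefSeq promoters on GRCm38.p6, each from 250 bases before to 50 after an annotated start, were found for 39 of the 47 genes; Atp6v0a2, Atp6v0d2, Atp6v1b2, Atp6v1c1, Atp6v1g1, Atp6v1h, Galns and Npc1 had no entry matched. An E-box was present in 9 of the 48 promoters of these genes (18.8%), and all 9 held the extended form. Among all 32851 promoters the shares were 7.15% for the E-box and 3.77% for the extended form. Of the 9 genes, Lamp1 held 4 E-boxes, and Mcoln1, Gla and Atp6v0b held 2 each. The promoters of 4 genes are shown because they carry the most E-boxes (Lamp1), belong to genes that moved in opposite directions with RAB6A siRNA (Mcoln1 and Lamp1), stand before the catalytic V-ATPase subunit (Atp6v1a), or hold the E-boxes farthest from the start (Gla). Capitals mark the E-boxes, and each sequence runs 5′ to 3′ on the strand of the gene. The windows are chr8:13158911-13159210 (+ strand) for Lamp1, chr8:3500269-3500568 (+ strand) for Mcoln1, chr16:44139210-44139509 (- strand) for Atp6v1a and chrX:134600956-134601255 (- strand) for Gla.
Lamp1: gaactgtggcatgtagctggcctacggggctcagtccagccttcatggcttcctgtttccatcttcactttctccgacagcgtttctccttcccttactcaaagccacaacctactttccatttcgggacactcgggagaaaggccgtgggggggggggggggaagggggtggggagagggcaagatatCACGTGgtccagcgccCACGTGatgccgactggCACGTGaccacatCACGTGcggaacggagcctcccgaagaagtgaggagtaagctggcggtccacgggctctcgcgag
Mcoln1: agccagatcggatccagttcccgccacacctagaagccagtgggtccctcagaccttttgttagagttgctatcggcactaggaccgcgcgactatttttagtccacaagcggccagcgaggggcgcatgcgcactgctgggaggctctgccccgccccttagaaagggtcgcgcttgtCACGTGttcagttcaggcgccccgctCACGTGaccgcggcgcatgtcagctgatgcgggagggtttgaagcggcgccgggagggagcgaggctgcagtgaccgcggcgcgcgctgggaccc
Atp6v1a: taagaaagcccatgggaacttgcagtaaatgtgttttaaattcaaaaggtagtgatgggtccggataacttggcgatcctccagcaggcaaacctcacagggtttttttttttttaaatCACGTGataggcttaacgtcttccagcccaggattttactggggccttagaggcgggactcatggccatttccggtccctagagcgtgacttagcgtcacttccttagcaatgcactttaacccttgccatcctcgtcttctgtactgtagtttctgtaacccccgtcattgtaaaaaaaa
Gla: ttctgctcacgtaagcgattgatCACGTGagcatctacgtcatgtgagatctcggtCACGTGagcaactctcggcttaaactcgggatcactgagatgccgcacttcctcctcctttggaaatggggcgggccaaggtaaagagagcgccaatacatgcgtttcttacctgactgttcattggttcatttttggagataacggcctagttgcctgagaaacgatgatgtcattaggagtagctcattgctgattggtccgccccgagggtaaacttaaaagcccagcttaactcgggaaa

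The checks of the labels were as follows. Whole reads were recovered from the deposited values for 98.4% of the named genes and for all 47 genes described here, and the recovered totals ran from 32758729 to 47149258 reads per library. Rab6a was 25.7 ± 1.48 FPKM in the NC siRNA group (SD, n = 3, as for every mean below), 27.0 ± 1.45 in the SFRP2 siRNA group and 20.7 ± 0.445 in the RAB6A siRNA group, a log2 fold change of -0.31 against NC siRNA (adjusted p = 0.0024, limma). Since 36.5% of all genes were called lower in that comparison, this call by itself is a weak check of the RAB6A siRNA label. Sfrp2 had 2 to 4 reads in every library, so its level gives no check of the SFRP2 siRNA label. All 10 macrophage markers of a fixed list were above 0.5 FPKM, with a summed level of 2997 to 3258 FPKM in NC siRNA, 2663 to 2947 in SFRP2 siRNA and 2587 to 2992 in RAB6A siRNA libraries. Single markers moved apart within that sum: with RAB6A siRNA, Lyz2 was 214 ± 23.0 FPKM against 872 ± 24.0 in NC siRNA, Csf1r 27.0 ± 1.19 against 73.6 ± 8.48 and Spi1 62.9 ± 5.41 against 130 ± 9.28, while Tyrobp was 413 ± 48.5 against 210 ± 3.17 and Fcgr3 43.1 ± 4.48 against 28.1 ± 2.32. Their part in the results below was not tested. T cell, B cell and epithelial markers were all under 0.5 FPKM, and the summed fibroblast and endothelial markers stayed at or under 2.90 and 1.15 FPKM.

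In the NC siRNA libraries, the levels of these genes per length spanned more than 3 orders of magnitude. Cd68, a macrophage sialomucin of late endosomes and lysosomes, was highest at 1850.0 ± 110 FPKM. Lamp1, an abundant lysosomal membrane glycoprotein, followed at 313 ± 8.58 FPKM, then Grn, which encodes progranulin (195 ± 5.11), Psap, the saposin precursor (145 ± 4.41), and Laptm5 (135 ± 3.10). Next came Atp6ap1 (102 ± 1.17), Hexa (92.5 ± 4.05), and Gusb and Npc2 (81.0 ± 3.64 and 79.9 ± 0.787), which differed by less than the SD of Gusb. After them, Atp6v1a (68.5 ± 3.03), Tpp1 (66.0 ± 4.55), Atp6v1g1 (64.3 ± 4.77) and Atp6v0b (63.3 ± 4.23) each differed from the next in order by less than either SD. At the low end of the genes tested stood Atp6v1g2 (3.52 ± 0.490), Atp6v0d2 (1.45 ± 0.226) and Tfeb (0.976 ± 0.033). Near zero in all 9 libraries, and not tested, were 4 genes: Atp6v0a4 had 0 to 10 reads, Atp6v1b1 and Atp6v1c2 had 0 to 5, and Atp6v1fnb, a gene next to Atp6v1f that carries its name but is not a known subunit, had 0 to 4. The other 43 genes were above 0.5 FPKM on average in each of the 3 groups, so none entered the tests through 1 group alone.

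With RAB6A siRNA, these genes moved in both directions against NC siRNA. Tfeb, a master regulator of lysosomal genes, had the largest rise of the 43 tested, and Tfe3 fell. Most V-ATPase genes fell, though not once GC content and gene length were corrected for, while most hydrolase and lipid-handling genes rose or had higher values. By limma on log2(FPKM + 0.1) with Benjamini-Hochberg adjustment over 12712 genes, 18 of the 43 genes tested were higher and 17 lower at an adjusted p under 0.05, and 8 were not called. The background was as high: 37.6% of all genes tested were called higher and 36.5% lower, 74.1% in all, against 81.4% of the 43 genes. Since most of the transcriptome was called, the count over these genes sets them little apart. All RAB6A siRNA libraries lay above all NC siRNA libraries for 19 of the 43 genes and below for 17. Among all 12712 genes tested, 4983 lay above and 4860 below, so a lack of overlap sets these genes little apart too. The values below give which of them moved and how far. Beyond a log2 fold change of 1, where 17.3% of all genes were higher and 12.8% lower, stood Tfeb and Gm2a on the higher side and Atp6v0d2 and Atp6v1b2 on the lower side. The median log2 fold change was 0.13 over the 43 genes and 0.03 over all genes. Summed FPKM was 361817 to 372307 in NC siRNA and 399883 to 410877 in RAB6A siRNA libraries, and the main fit applied no further scaling. Under quantile normalization the medians were 0.06 over the 43 genes and -0.02 over all genes. Median-of-ratios scaling gave 0.08 and -0.02. In bulk libraries, fewer cells of a kind and less RNA per cell cannot be told apart. When each library was corrected for GC content and length, the split was 23 higher and 12 lower in place of 18 and 17. The whole table shifted the same way under that correction, to 41.6% higher and 33.7% lower, with a median over all genes of 0.09. Without it, log2 fold changes ran with gene length (Spearman rho -0.214 over 12535 genes, a description).

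**Figure D1:**
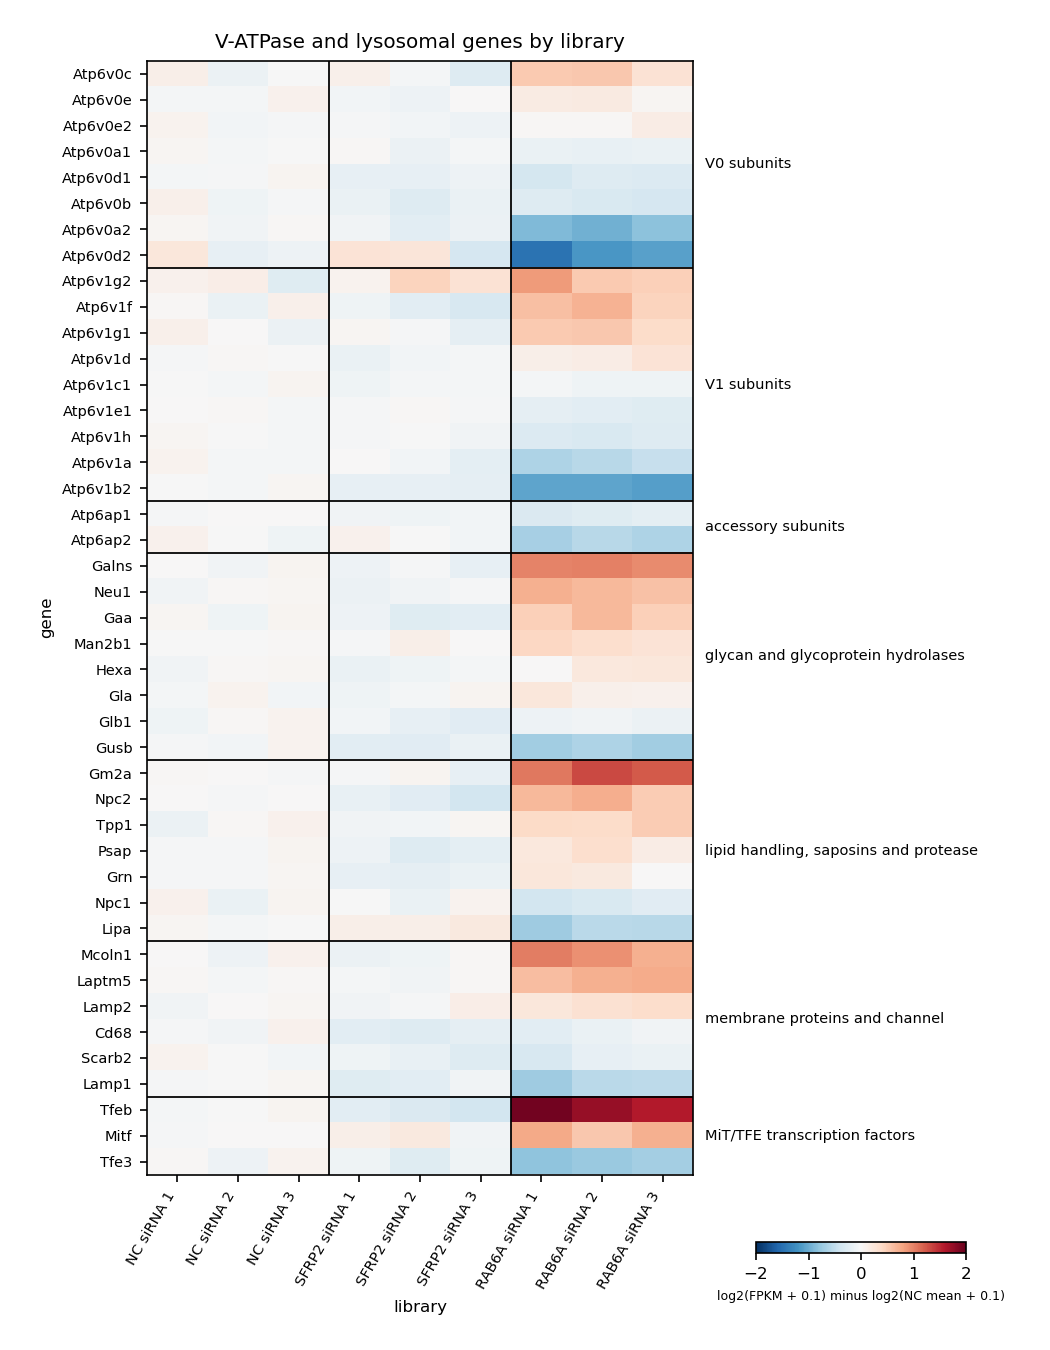
Heat map of the 43 genes tested (rows, grouped by role) in the 9 libraries (columns); the colour is log2(FPKM + 0.1) minus the same for the NC siRNA mean, from blue (lower) to red (higher). The RAB6A siRNA libraries hold most of the strong colour, in both directions, and Tfeb is the reddest row there.

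The 3 MiT/TFE genes did not move together. Tfeb (ENSMUSG00000023990, chr17:47737030-47792419 on GRCm38) was 0.950, 0.965 and 1.01 FPKM in the NC siRNA libraries, 0.826, 0.780 and 0.736 in the SFRP2 siRNA libraries, and 4.0, 3.50 and 3.13 in the RAB6A siRNA libraries. Every RAB6A siRNA library was above every other library, though a lack of overlap with NC siRNA was common in the whole table, as given above. The recovered reads of Tfeb were 582 to 825 in the RAB6A siRNA libraries against 224 to 258 in NC siRNA. Tfeb rose by a log2 fold change of 1.75 (SE 0.12, adjusted p = 9.8e-06), 3.37-fold on this scale. Tfe3 (ENSMUSG00000000134, chrX:7762560-7775202), the most abundant of the 3 in NC siRNA cells, was 14.3, 13.2 and 14.8 FPKM in NC siRNA, 13.4, 12.0 and 13.2 in SFRP2 siRNA, and 7.99, 8.39 and 8.72 in RAB6A siRNA libraries. It fell by 0.75 on the log2 scale (SE 0.07, adjusted p = 4.4e-05), with no overlap between the RAB6A siRNA libraries and the rest. Mitf (ENSMUSG00000035158, chr6:97807052-98021349), known for melanocytes, mast cells and osteoclasts, was 8.75, 8.86 and 8.94 FPKM in NC siRNA, 9.61, 10.2 and 8.44 in SFRP2 siRNA, and 15.1, 13.0 and 14.6 in RAB6A siRNA libraries. It rose by 0.67 (SE 0.07, adjusted p = 8.6e-05). In the RAB6A siRNA libraries, Mitf was thus the most abundant of the 3, at 14.2 ± 1.10 FPKM against 8.37 ± 0.367 for Tfe3 and 3.55 ± 0.437 for Tfeb. These 3 directions were the same under every alternative run.

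**Figure D2:**
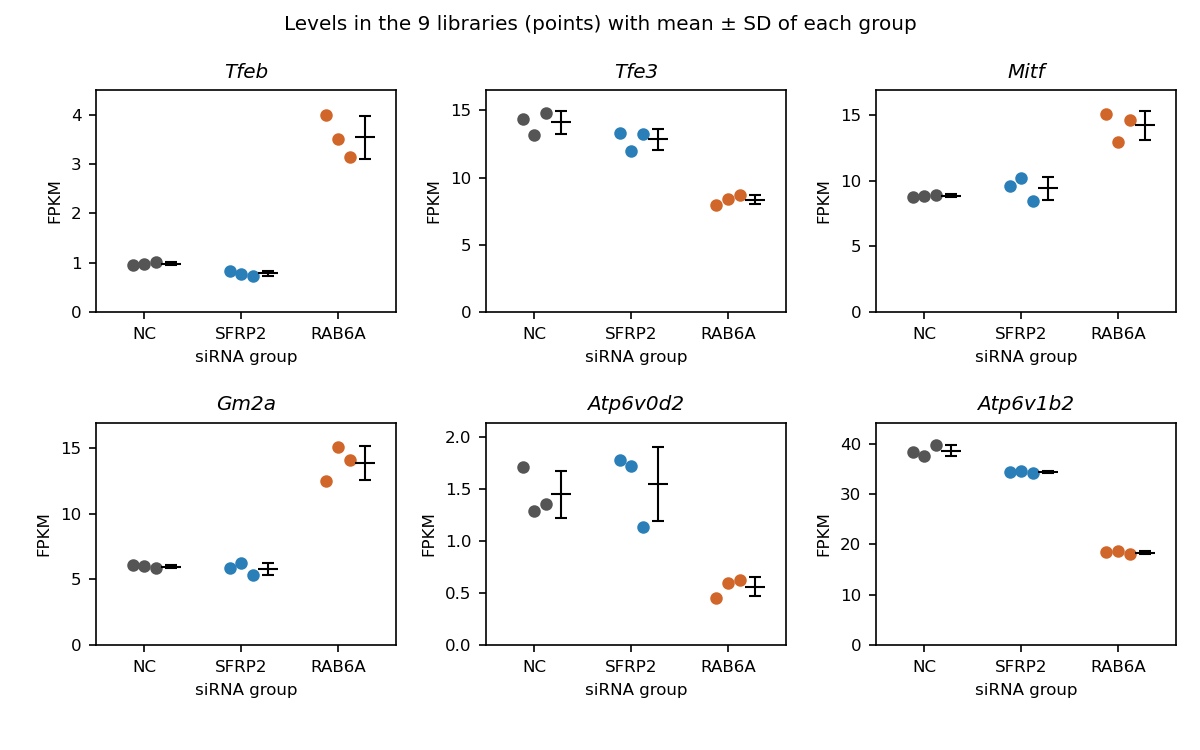
FPKM of Tfeb, Tfe3, Mitf, Gm2a, Atp6v0d2 and Atp6v1b2 in the 9 libraries (points), with the mean ± SD of each siRNA group beside them; each axis starts at 0. The RAB6A siRNA points stand apart from the other 6 in every panel, higher for Tfeb, Mitf and Gm2a and lower for Tfe3, Atp6v0d2 and Atp6v1b2.

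Of the 19 V-ATPase genes tested, 11 fell and 5 rose with RAB6A siRNA, and the median log2 fold change was -0.21. This lean to the lower side was not seen after the correction for GC content and length, which gave 7 higher and 7 lower and a median of 0.11, where 41.6% of all genes were higher and 33.7% lower. In V0, the membrane sector, 5 of 8 genes fell and 1 rose without that correction, and 4 fell and 3 rose with it. Among all genes, without it, 36.5% fell and 37.6% rose. Atp6v0d2 (ENSMUSG00000028238, chr4:19876841-19922605), the d isoform enriched in osteoclasts and macrophages, was 1.71, 1.29 and 1.35 FPKM in NC siRNA, 1.78, 1.72 and 1.13 in SFRP2 siRNA, and 0.456, 0.594 and 0.629 in RAB6A siRNA libraries. All 3 RAB6A siRNA libraries were below all others, from 45 to 61 reads each, and the gene fell by 1.23 on the log2 scale (SE 0.19, adjusted p = 6.5e-04). Atp6v0a2, the a isoform placed mainly on Golgi and early endosomes, fell from 11.4 ± 0.456 to 6.13 ± 0.329 FPKM (log2 fold change -0.89). Atp6v0b, a proteolipid of the rotor ring and the V0 gene of highest level in NC siRNA, was 67.9, 59.6 and 62.3 FPKM in NC siRNA, 57.9, 52.9 and 57.7 in SFRP2 siRNA, and 53.2, 51.4 and 50.1 in RAB6A siRNA libraries. It fell by 0.29 (SE 0.06, adjusted p = 0.0041), as did Atp6v0d1, the widely used d isoform (log2 fold change -0.29). Atp6v0c, which encodes the main proteolipid of the same ring, moved the other way and rose from 20.1 ± 1.67 to 27.6 ± 2.65 FPKM (0.45). Atp6v0a1 was called lower (-0.13), but it was called higher after the GC content and length correction (0.14). Without any 1 of the 6 libraries it lost its call, and Atp6v0e2 (0.07) was not called. Atp6v0e (0.13) was not called either, but it was called higher after that correction (0.46), under quantile normalization (0.28) and without RAB6A siRNA library 3 (0.18).

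In V1, the ATP-hydrolyzing sector, 4 of 9 genes rose and 4 fell, where 37.6% of all genes rose and 36.5% fell. The subunits of the catalytic hexamer fell: Atp6v1b2 (ENSMUSG00000006273, chr8:69088646-69113711), the B isoform of this cell line, was 38.4, 37.6 and 39.8 FPKM in NC siRNA, 34.4, 34.5 and 34.2 in SFRP2 siRNA, and 18.5, 18.6 and 18.0 in RAB6A siRNA libraries. The libraries of each group lay close together, no groups overlapped, and the fall with RAB6A siRNA was 1.07 on the log2 scale (SE 0.05, adjusted p = 2.8e-06). Its partner Atp6v1a, the catalytic A subunit and the V1 gene of highest level, was 72.0, 67.0 and 66.5 FPKM in NC siRNA, 69.1, 66.0 and 60.1 in SFRP2 siRNA, and 44.8, 46.7 and 49.6 in RAB6A siRNA libraries. It fell by 0.54 (SE 0.06, adjusted p = 1.3e-04), again with all RAB6A siRNA libraries below the rest. Atp6v1h, the regulatory H subunit, was called lower at -0.28 and lost the call after the GC content and length correction (-0.08), and Atp6v1e1, a stalk subunit called lower at -0.21, turned higher under that correction (0.11). The genes that rose encode stalk and rotor subunits: Atp6v1g1 rose from 64.3 ± 4.77 to 89.5 ± 6.07 FPKM (0.48), Atp6v1g2 from 3.52 ± 0.490 to 5.51 ± 0.800 (0.63), Atp6v1f from 43.9 ± 3.51 to 65.8 ± 5.54 (0.58) and Atp6v1d from 41.8 ± 0.699 to 47.5 ± 2.69 (0.18). The call of Atp6v1f was lost under the GC content and length correction (0.16) and that of Atp6v1d under median-of-ratios scaling (0.13) and without NC siRNA library 1 (0.17) or 3 (0.18). Exons of Atp6v1g2 overlap those of Nfkbil1 on the other strand over 5.74% of their length, and whether the counting used strand is not given in the sources used here. Atp6v1c1 was not called (-0.07), with a value above 0 under quantile normalization (0.06), but it was called higher after the correction (0.26).

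Both accessory genes were called lower, as were 36.5% of all genes. Atp6ap2, the (pro)renin receptor, fell from 36.1 ± 2.05 to 23.6 ± 0.916 FPKM (log2 fold change -0.61). Atp6ap1, needed for assembly of the V0 sector, was 101, 103 and 102 FPKM in NC siRNA, 97.1, 95.8 and 98.3 in SFRP2 siRNA, and 83.6, 85.8 and 88.7 in RAB6A siRNA libraries. Its fall of 0.24 (SE 0.05, adjusted p = 0.0031) was absent after the GC content and length correction, which gave 0.0039.

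**Figure D3:**
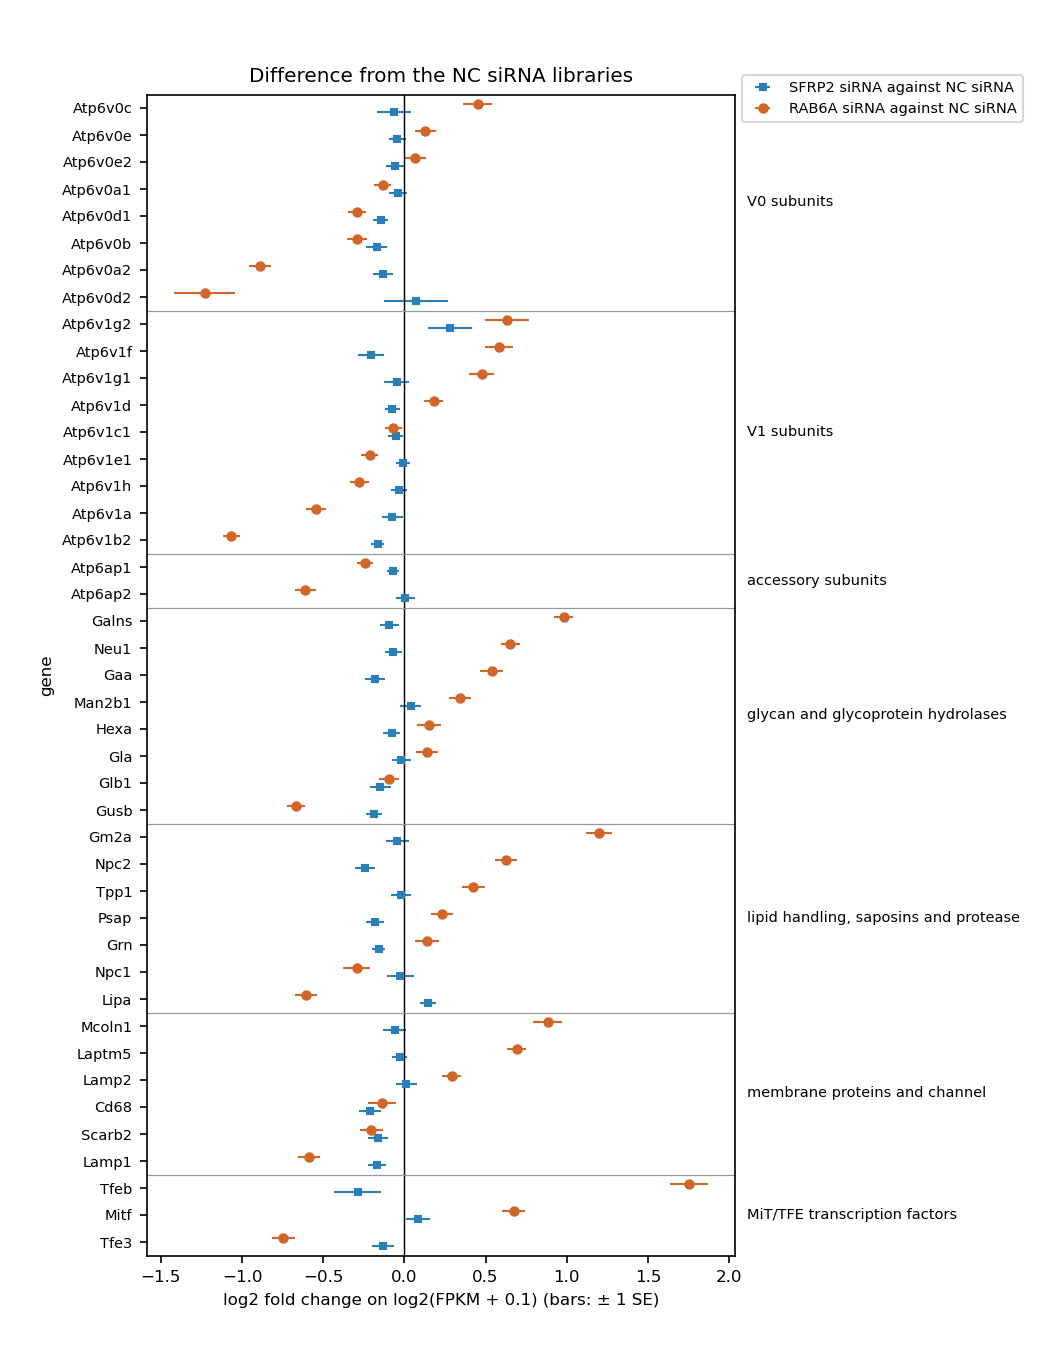
Log2 fold change (x axis, log2(FPKM + 0.1) scale, bars ± 1 SE) of the 43 genes tested (y axis, grouped by role) for RAB6A siRNA (orange circles) and SFRP2 siRNA (blue squares), each against the same 3 NC siRNA libraries. Orange circles run from -1.23 for Atp6v0d2 to 1.75 for Tfeb, while blue squares stay between -0.29 for Tfeb and 0.28 for Atp6v1g2.

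The makeup of a subunit by isoform was compared as each isoform's share of the summed FPKM of that subunit. For the a subunit, which anchors the stator and targets the pump, Tcirg1 (the a3 isoform of lysosomes and osteoclasts, not among the 47 genes) made up 74.0% ± 1.21 of the sum in NC siRNA, 71.8% ± 0.558 in SFRP2 siRNA and 81.5% ± 1.72 in RAB6A siRNA libraries. Atp6v0a2 made up 10.1%, 10.7% and 10.1% in the NC siRNA libraries, 10.8%, 10.5% and 11.0% in the SFRP2 siRNA libraries, and 4.70%, 4.95% and 5.85% in the RAB6A siRNA libraries. Atp6v0a1 went from 15.6% ± 0.857 to 13.3% ± 1.12 with RAB6A siRNA and to 17.4% ± 0.312 with SFRP2 siRNA. For each of the 3 isoforms, the RAB6A siRNA libraries lay apart from the NC siRNA libraries (exact two-sided permutation p = 0.1, the smallest that 3 against 3 libraries allow). The SFRP2 siRNA libraries also lay apart from NC siRNA for Tcirg1 and Atp6v0a1 (exact permutation p = 0.1 each), with differences of -2.25 and 1.79 percentage points against 7.44 and -2.34 with RAB6A siRNA. Tcirg1 itself was 87.0, 74.1 and 86.1 FPKM in NC siRNA, 72.5, 67.7 and 68.3 in SFRP2 siRNA, and 108, 95.6 and 87.9 in RAB6A siRNA libraries, and it was not called (log2 fold change 0.24, adjusted p = 0.056). Of the d isoforms, Atp6v0d2 made up 3.01% ± 0.515 in NC siRNA, 3.54% ± 0.868 in SFRP2 siRNA and 1.44% ± 0.191 in RAB6A siRNA libraries (RAB6A against NC siRNA, exact permutation p = 0.1). The shares of the e isoforms (exact permutation p = 0.6) and of the G isoforms (exact permutation p = 0.2) overlapped between RAB6A and NC siRNA libraries. Of the B and C subunits, Atp6v1b2 and Atp6v1c1 gave at least 99.7% of the sum in each library.

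**Figure D4:**
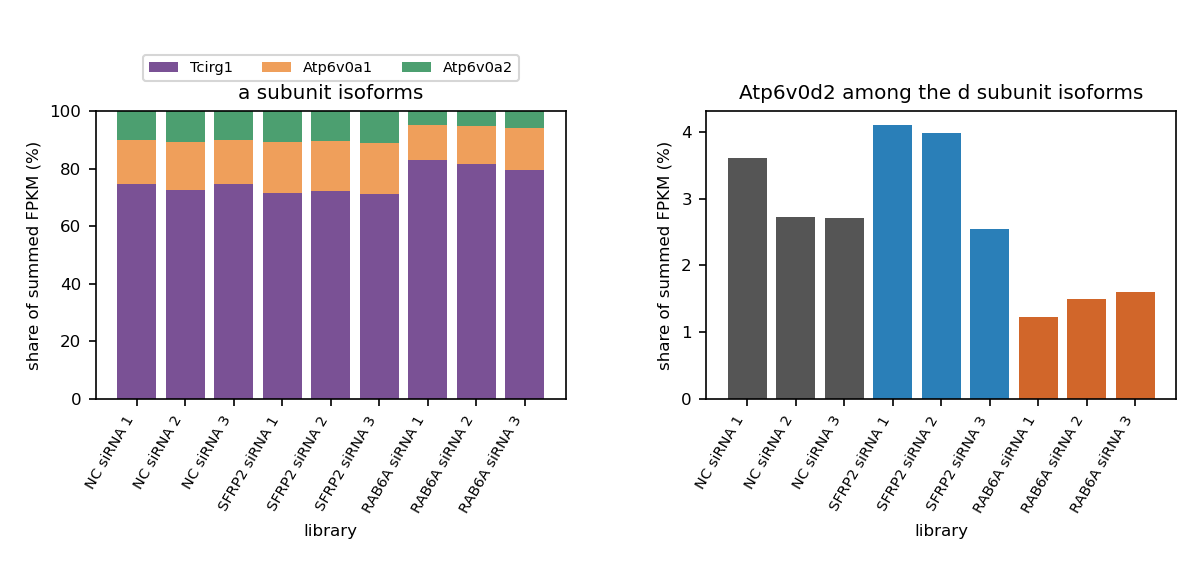
Share of the summed FPKM (y axis, percent) of the a isoforms Tcirg1, Atp6v0a1 and Atp6v0a2 in each library (left, stacked bars) and of Atp6v0d2 among Atp6v0d1 and Atp6v0d2 (right). In the RAB6A siRNA libraries the Atp6v0a2 band is between 4.70% and 5.85%, against 10.1% to 11.0% in the other 6 libraries, and the Atp6v0d2 bars are the 3 lowest.

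Of the 24 listed lysosomal genes, all of which were tested, 13 rose and 6 fell with RAB6A siRNA, and the median log2 fold change was 0.26; after the GC content and length correction 16 were higher and 5 lower, beside the same shift to the higher side over all genes (41.6% and 33.7%). Among the 8 glycan and glycoprotein hydrolases, 4 rose and 1 fell without that correction, where 37.6% of all genes rose and 36.5% fell. Galns, which removes sulfate from keratan sulfate and chondroitin sulfate, rose from 13.2 ± 0.596 to 26.0 ± 0.661 FPKM (log2 fold change 0.98, adjusted p = 5.7e-06). Neu1, the lysosomal sialidase, rose from 26.7 ± 1.05 to 42.0 ± 1.69 FPKM (0.65), Gaa, the glycogen-degrading acid glucosidase, from 22.0 ± 1.15 to 32.0 ± 2.32 (0.54), and Man2b1, an acid mannosidase, from 3.95 ± 0.047 to 5.04 ± 0.235 (0.34). Gusb, the beta-glucuronidase, was the exception and fell from 81.0 ± 3.64 to 50.9 ± 1.40 FPKM (-0.67). Hexa, the alpha chain of hexosaminidase A and the hydrolase of highest level, was 87.9, 94.1 and 95.6 FPKM in NC siRNA, 84.7, 87.7 and 90.4 in SFRP2 siRNA, and 93.3, 107 and 109 in RAB6A siRNA libraries. These groups overlapped and Hexa was not called (0.15, adjusted p = 0.10), and it was called without RAB6A siRNA library 1 (0.22). Its exons overlap those of Tmem202 on the other strand over 12.8% of their length, and Tmem202 was at 0.217 FPKM on average. Glb1 (-0.10) was not called either, but it was called higher after the GC content and length correction (0.14). Gla (0.14) was not called, but it was called higher after that correction (0.45) and under quantile normalization (0.26).

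Of the 7 genes for lipid handling, saposins and the protease Tpp1, 4 rose and 2 fell, beside 37.6% and 36.5% of all genes. Gm2a (ENSMUSG00000000594, chr11:55098115-55113029), the activator that presents ganglioside GM2 to hexosaminidase A, was 6.09, 5.98 and 5.85 FPKM in NC siRNA, 5.86, 6.24 and 5.30 in SFRP2 siRNA, and 12.5, 15.0 and 14.1 in RAB6A siRNA libraries. Every RAB6A siRNA library was above all others, and the rise was 1.20 on the log2 scale (SE 0.08, adjusted p = 9.2e-06), 2.29-fold. The other sphingolipid activator gene, Psap, was called higher by 0.23 and lost the call under quantile normalization (0.05). The cholesterol carriers of the lysosome moved apart: Npc2, the soluble carrier, rose from 79.9 ± 0.787 to 124 ± 9.89 FPKM (0.63), while Npc1, the membrane transporter it hands cholesterol to, was called lower, 8.96 ± 0.732 against 7.27 ± 0.378 FPKM (-0.30), a call lost after the GC content and length correction (-0.07). Lipa, the acid lipase that frees this cholesterol from esters, fell from 13.9 ± 0.398 to 9.14 ± 0.615 FPKM (-0.61). Tpp1, a tripeptidyl peptidase, rose from 66.0 ± 4.55 to 88.6 ± 4.79 FPKM (0.42). Grn was 192, 193 and 201 FPKM in NC siRNA, 174, 172 and 178 in SFRP2 siRNA, and 229, 223 and 196 in RAB6A siRNA libraries. RAB6A siRNA library 3 lay within the NC siRNA range, and Grn was not called at 0.14 (adjusted p = 0.12). It was -0.11 under quantile normalization, and was called higher without that library (0.21) and after the GC content and length correction (0.27).

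Among the 6 membrane genes, 3 rose and 2 fell, beside 37.6% and 36.5% of all genes. Mcoln1, the calcium channel TRPML1 of the lysosomal membrane, rose from 8.30 ± 0.518 to 15.4 ± 1.60 FPKM (log2 fold change 0.88, adjusted p = 7.6e-05). Laptm5, a membrane protein of hematopoietic lysosomes, rose from 135 ± 3.10 to 219 ± 10.5 FPKM (0.69). The LAMP glycoproteins moved apart, Lamp1 falling from 313 ± 8.58 to 208 ± 14.7 FPKM (-0.59, adjusted p = 1.6e-04) and Lamp2, the isoform set linked to chaperone-mediated autophagy, rising from 49.9 ± 1.95 to 61.2 ± 2.51 (0.29, adjusted p = 0.0025). Scarb2, the receptor LIMP-2 that carries glucocerebrosidase to lysosomes, was called lower at -0.20 but was higher after the GC content and length correction (0.10), and it lost the call without NC siRNA library 1 or 2 or RAB6A siRNA library 1 or 2 (-0.15 to -0.22). Cd68 was 1819, 1759 and 1972 FPKM in NC siRNA, 1606, 1544 and 1637 in SFRP2 siRNA, and 1594, 1689.7 and 1762 in RAB6A siRNA libraries, and was not called (-0.14, adjusted p = 0.18), though it was called lower after that correction (-0.42).

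The E-boxes were set beside these values. Among the genes with a RefSeq promoter, an E-box was present in 2 of 16 called higher, 4 of 12 called lower and 3 of 7 not called. Mcoln1 (E-boxes starting 71 and 45 bases before the start, at -71 and -45) and Gaa (-140) rose. Lamp1 (-61, -45, -28 and -15), Atp6v1a (-131), Atp6v0b (-36 and -18) and Atp6v0d1 (-3) fell. Gla (-227 and -194), Glb1 (-48) and Atp6v0e (4 bases after the start) were not called, but each was called higher after the GC content and length correction. Genes with an E-box thus lay on both sides of zero, from -0.59 for Lamp1 to 0.88 for Mcoln1. Tfeb rose and Tfe3 fell in the same libraries, and no binding of these factors was measured here. By family, 4 of 17 V-ATPase genes and 5 of 22 listed genes with a promoter held an E-box. Together this was 23.1% of the genes with a promoter, against 8.09% of all 27025 genes with one.

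**Figure D5:**
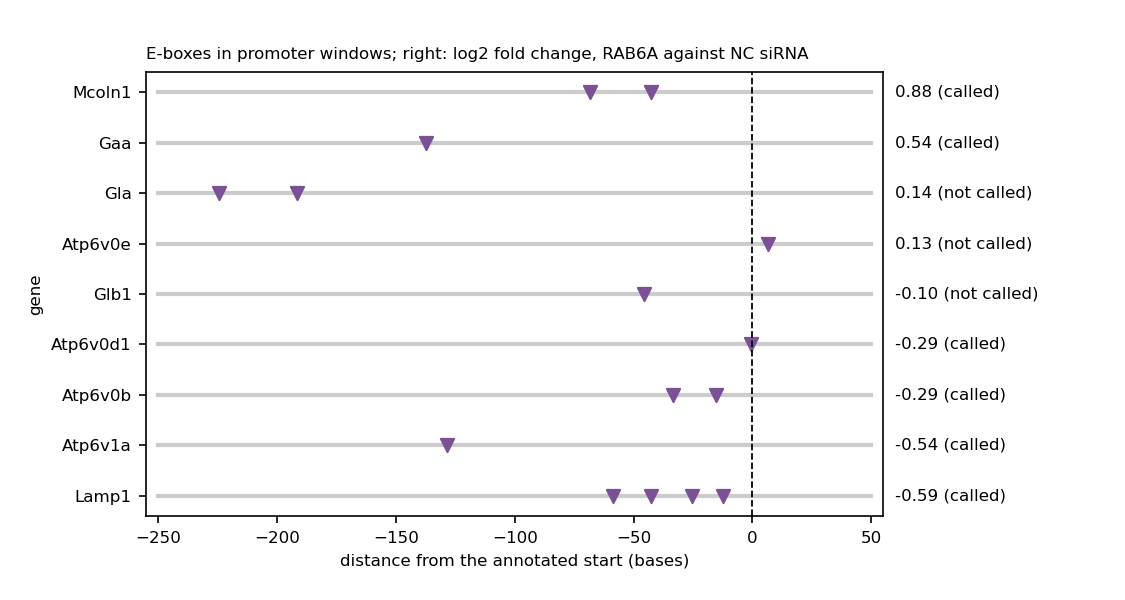
Positions of the E-boxes (triangles) in the promoter windows of the 9 genes that hold one, as distance in bases from the annotated start (x axis, dashed line at 0), with the log2 fold change of RAB6A against NC siRNA at the right. Genes are sorted by that change, from -0.59 for Lamp1 at the bottom to 0.88 for Mcoln1 at the top, and most E-boxes lie in the part of the window nearest to the start.

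Other genes of the lysosome were taken from 5 companion lists, of which 101 genes were tested. With RAB6A siRNA 34 rose and 31 fell, where 37.6% of all genes were called higher and 36.5% lower, 74.1% in all. The same background stands beside the counts of the single lists. The median log2 fold change was 0.03, as over all genes. Of these, 2 genes (Hyal3 and Laptm4b) passed the filter on low values only through the RAB6A siRNA libraries, where they were high, so their calls higher carry no weight; without them 32 of 99 rose, and the median was 0.01. Of 33 further hydrolases and cofactors, leaving out Hyal3, 12 rose and 11 fell. Hyal1, a lysosomal hyaluronidase, was 0.846, 0.842 and 0.934 FPKM in NC siRNA and 6.70, 6.26 and 6.40 in RAB6A siRNA libraries, the widest rise of these lists (2.75, SE 0.09). Hyal3, of the same family, was 0.155 ± 0.101 FPKM in NC siRNA and 0.957 ± 0.165 in RAB6A siRNA libraries. Pla2g15, a lysosomal phospholipase (1.68), Naglu, of heparan sulfate degradation (1.46), and Arsa, the sulfatase of sulfatide degradation (1.05), rose as well. Acp5, the tartrate-resistant phosphatase of osteoclasts, went the other way, from 3.22, 2.98 and 3.42 FPKM in NC siRNA to 0.691, 0.742 and 0.752 in RAB6A siRNA libraries (-1.99, SE 0.11), as did Arsb, another sulfatase (-1.19).

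Of 23 genes for the sorting of lysosomal proteins, 7 rose and 11 fell, where 37.6% of all genes rose and 36.5% fell. Igf2r, the cation-independent mannose 6-phosphate receptor, was 9.80, 9.59 and 9.82 FPKM in NC siRNA and 3.74, 3.55 and 3.51 in RAB6A siRNA libraries, a fall of 1.41 on the log2 scale. Nagpa, the enzyme that uncovers the mannose 6-phosphate tag, fell by 1.21, and Vps33a, of the HOPS and CORVET tethers, fell by 1.16. Of 8 MiT/TFE partners and responders, 5 rose and 1 fell. Fnip1, a partner of folliculin, rose by 1.40 and Bhlhe41 by 1.77, while Gpnmb, a glycoprotein often used as a readout of MITF and TFE3, fell by 1.04 from 361 ± 22.2 to 176 ± 4.86 FPKM. Of 24 other lysosomal membrane genes, leaving out Laptm4b, 6 rose and 4 fell, and the amino acid sensor Slc38a9 rose by more than 1 (1.25). Laptm4b was 0.214 ± 0.088 FPKM in NC siRNA and 0.909 ± 0.242 in RAB6A siRNA libraries. Of 11 other V-ATPase factors, 2 rose and 4 fell, and Rogdi, a subunit of the complex that helps V1 rejoin V0, rose by 1.33.

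RAB6A and SFRP2 siRNA libraries were also compared directly. By limma over 12764 genes, 21 of the 43 genes were higher and 14 lower in RAB6A siRNA libraries, where the background was 37.6% higher and 35.8% lower, 73.4% in all. Tfeb (2.04, SE 0.13), Gm2a (1.24, SE 0.09) and Galns (1.07, SE 0.06) were higher by more than 1 on the log2 scale. Atp6v0d2 (-1.30, SE 0.22) was lower by more than 1. Among all genes, 17.8% were called higher and 13.3% lower past that fold change. Atp6v1b2 (-0.90), Tfe3 (-0.61) and Mitf (0.59) were called in the same direction as against NC siRNA. The adjusted p of these 7 genes ran from 6.3e-06 for Atp6v1b2 to 0.0014 for Atp6v0d2. The 2 comparisons share the RAB6A siRNA libraries, so they are not independent.

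With SFRP2 siRNA, none of these genes passed the test against NC siRNA. The values leaned to the lower side: 36 of 43 genes (83.7%) were lower and 7 higher, where 52.5% of all genes were lower, with a median log2 fold change of -0.07 against -0.01 over all genes. By limma over 12017 genes, none was called at an adjusted p under 0.05, among the 43 or in the whole table (0%), and the smallest adjusted p among the 43 was 0.178. At an unadjusted p under 0.05, 12 genes were lower and 1 higher, where 10.7% of all genes were lower and 7.73% higher. Voom on the recovered reads called 41 genes in the whole table but none of the 43. In this comparison, log2 fold changes ran with GC content (Spearman rho -0.498 over 11903 genes, a description), and the 43 genes had a median GC content of 51.1% against 49.6% for all genes. After the GC content and length correction 8 genes were lower at that p in place of 12, where 7.61% of all genes were. The median was then -0.06 over the 43 genes and -0.01 over all genes. With the replicate block added to that correction, 13 genes were lower at that p, where 9.37% of all genes were. After quantile normalization 5 were lower, where 9.79% of all genes were. In the main fit without NC siRNA library 3 the number was 7 (6.52% of all genes), and without SFRP2 siRNA library 2 it was 6 (7.32%). With any other library left out the number ran from 9 to 13 (8.3% to 12.5% of all genes), and it was 14 with all 9 libraries in a single fit (9.55%).

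The genes of smallest unadjusted p were these. Npc2 was 80.1, 79.0 and 80.6 FPKM in NC siRNA and 72.0, 68.5 and 62.1 in SFRP2 siRNA libraries, a log2 fold change of -0.24 (SE 0.06, unadjusted p = 0.0047, adjusted p = 0.178). Atp6v1b2, with values given above, differed by -0.17 (SE 0.04, unadjusted p = 0.0053), and Grn by -0.16 (SE 0.04, unadjusted p = 0.0070). All 3 SFRP2 siRNA libraries were below all NC siRNA libraries for each of these 3 genes. The groups lay apart in this way for 14 of the 43 genes on the lower side and 1 on the higher, where 13.9% and 10.9% of all genes did. On the higher side, Lipa was 14.4, 13.6 and 13.8 FPKM in NC siRNA and 15.1, 15.1 and 16.0 in SFRP2 siRNA libraries (0.15, unadjusted p = 0.022). Atp6v1g2 was 3.73, 3.87 and 2.96 FPKM in NC siRNA and 3.70, 4.86 and 4.33 in SFRP2 siRNA libraries, which overlapped (0.28, unadjusted p = 0.074), and Mitf differed by 0.08 (unadjusted p = 0.31). Tfeb was lower in all 3 SFRP2 siRNA libraries than in any NC siRNA library, at 0.781 ± 0.045 against 0.976 ± 0.033 FPKM, but the difference of -0.29 (SE 0.14) was not called (adjusted p = 0.325). Reads of Tfeb were 145 to 190 in the SFRP2 siRNA libraries. Its GC content is 61.3%, and fold changes in this comparison ran with GC content, as given above. Whether GC content had a part in the Tfeb difference was not tested.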

How the data were processed

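Each value in the deposited table is an FPKM, that is, fragments scaled by exon length and library size, listed by the authors under Ensembl identifiers. Per the labels, paired-end mRNA libraries were made from TRIzol RNA, and the submitters' processing notes name HISAT2, featureCounts and Subread. The genome build, the annotation and any use of strand in counting are not given in the sources used here, and replicates were not pooled. The genes, their roles and the companion lists were chosen with earlier results of these data known.

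Names came from GENCODE M21 on GRCm38 for 27533 of 28137 identifiers. FPKM was multiplied by exon length to recover whole reads (tolerance 0.03 of a read, all 9 libraries), which worked for 27084 genes, so the annotation behind the lengths was close to M21. On log2(FPKM + 0.1), limma 3.58.1 in R 4.3.3 (lmFit, eBayes with intensity trend) was fitted to the 6 libraries of each of 3 comparisons. Genes had a mean of at least 0.5 FPKM over those 6, and Benjamini-Hochberg adjustment ran over all of them. A gene was called at an adjusted p under 0.05. A fold change on this scale understates the change of low genes. Isoform shares were tested by exact two-sided permutation of the 3 against 3 libraries (Python 3.11.15, scipy 1.17.1).

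Named with the values of every library were genes past a log2 fold change of 1 in RAB6A against NC siRNA, the most abundant gene of each role group, the MiT/TFE genes, and the 3 genes of smallest p in each direction in SFRP2 against NC siRNA; other values stand as means. Tcirg1 was named in any case, and other companion genes where they passed a log2 fold change of 1, of which 1 is not reported here. Atp6ap1l, Atp6v1e2, Atp6v1g3, Tfec, Lamp5 and Vma22 were not analysed here.

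Counts simulated from the real means were used to test the fit. For RAB6A against NC siRNA (11857 genes), limma called 97 of 100 genes changed by a log2 fold change of 1, 71 of 100 changed by 0.5 and 12 of 11657 unchanged ones. For SFRP2 against NC siRNA (11866 genes), it called 92 of 98, 69 of 99 and 7 of 11669. Few genes were changed there, and all had the same spread on the log2 scale, the median SD of the NC siRNA libraries. In the real comparisons 74.1% of genes were called with RAB6A siRNA and 0% with SFRP2 siRNA. The simulated counts are therefore not the power or error rate of these results. Alternatives covered the pseudocount, the filter, scaling, GC content and length, the prior, the libraries in the fit, a replicate block, voom on recovered reads and leaving out each library. Replicate pairs within a group had Pearson correlations of 0.973 to 0.982 on the log2 scale, so no library was counted as a copy of another.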

Additional observations from a re-analysis of the deposited data

How the results depend on the processing

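Against NC siRNA, 26 of the 35 genes called with RAB6A siRNA kept direction and call under every alternative, 8 lost the call under at least 1, and 4 turned. Under quantile normalization Grn became -0.11 and Atp6v1c1 became 0.0559. The GC content and length correction, with or without the replicate block, also changed signs. Atp6ap1 became 0.0039, Scarb2 0.10, Atp6v1e1 0.11, Glb1 0.14, Atp6v0a1 0.14 and Atp6v1c1 0.26. Of these, Atp6v0a1, Atp6v1c1 and Glb1 were called higher after the correction without the block. The cause was not tested. In SFRP2 against NC siRNA, voom called 41 genes of the whole table in place of 0, and the count ranged from 0 to 1 when 1 library was left out, the 1 arising without NC siRNA library 1. The difference in the share of Atp6v0e among the e isoforms there, 0.20 percentage points, ranged from -0.46 to 0.78 when 1 library was left out, and that of Atp6v0e2 from -0.78 to 0.46, the sign turning without NC siRNA library 1 or SFRP2 siRNA library 3. The V-ATPase genes called lower with RAB6A siRNA went from 11 to 7 after the GC content and length correction, and their median from -0.21 to 0.11. Of all genes, 36.5% were called lower without that correction and 33.7% with it. The genes lower with SFRP2 siRNA at an unadjusted p under 0.05 went from 12 to 5 after quantile normalization and to 8 after that correction. The shares of all genes were 10.7% in the main fit, 9.79% after quantile normalization and 7.61% after the correction.

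Libraries that share a replicate number did not deviate together (correlations of deviations from -0.085 to 0.048, against -0.12 to 0.081 for different numbers), so the numbers were not taken as pairs. With the replicate block, 17 genes were higher and 15 lower in RAB6A against NC siRNA (9103 called in the whole table, 36.6% higher and 35% lower). In RAB6A against SFRP2 siRNA 19 were higher and 13 lower, where 4722 and 4437 of all 12764 genes were. None was called in SFRP2 against NC siRNA, where 14 were lower at an unadjusted p under 0.05, beside 13.1% of all genes. The calls of Atp6v1d, Scarb2 and Atp6v0a1 in RAB6A against NC siRNA were lost with the block. With 3 libraries a group, exact tests cannot go below p = 0.1, and smaller changes than a log2 fold change of 0.5 were not simulated. Reads were fewest for Atp6v0d2 among the genes tested (45 in a RAB6A siRNA library), so its fold change has the widest error of them.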
